A study of Sus scrofa with 8 samples.

Results

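The miRNAs miR-144, miR-451, miR-486, miR-15a, miR-15b and miR-16, which are known from red and white blood cells, were followed in the livers of young and old sows. They were chosen by name alone, as every entry of the miRNA table named for 1 of these miRNAs with or without an arm, and 9 of the 888 miRNA names of the series met this rule. The locus number in miR-16-1-3p was read as part of its arm suffix, and no entry was named miR-451a. Livers from 2 young sows, 180 days of age, and 2 old sows, 8 years of age, gave 1 small RNA-seq and 1 RNA-seq library each. The paper states that the young sows had never had a litter, whereas the old sows were culled after years of breeding. Age and reproductive history therefore cannot be told apart in these groups. Within each library type, replicates were separate sows, and the sows shared no ancestor over the generations that the study's methods cover. All 4 were Yanan sows that were bled at slaughter after a night without feed, and pieces of whole liver were frozen. The blood left in the tissue was therefore part of each sample. In such bulk tissue, fewer cells of a type and less RNA per cell cannot be told apart. A normalized read is the value the authors deposited, which in each library was a whole number of reads times 1 step.

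A miRNA is cut from a hairpin by DROSHA with DGCR8 and then by DICER1, and 1 of its arms guides an AGO protein to mRNAs that pair with its seed. The hairpins of miR-144 and miR-451 lie on the same primary transcript, which is switched on by GATA1 in maturing red blood cells, and miR-451 is unusual in that AGO2 rather than DICER1 finishes its processing. MiR-486 lies in ANK1, the gene of a red cell membrane anchor, and it also has a promoter that is active in muscle. MiR-15a, miR-15b and miR-16 share a seed, come from a pair of clusters that each hold a miR-15 and a miR-16 hairpin, and are known for holding back cell cycle and survival genes such as cyclins and BCL2. They are abundant in blood cells but are made in nearly every tissue.

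The pig gene table of RefSeq (Sscrofa11.1) placed the MIR451 and MIR144 hairpins next to each other within ERAL1, and MIR486-1 within ANK1. It placed MIR15B and MIR16-1 side by side within SMC4, a condensin gene, whereas MIR15A and MIR16-2 were neighbours within no gene. Reads of the mature miR-16 from its 2 loci share the entry miR-16-5p, so the cluster they came from cannot be told apart. The entries ssc-miR-144, ssc-miR-451, ssc-miR-486, ssc-miR-15a and ssc-miR-15b name no arm.

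On mRNA identifiers, the RNA libraries held 22482241 to 37555696 reads. The small RNA libraries held 11661943 to 14139461 reads summed over all miRNA names. These sums exceed the clean reads that the study gives for a small RNA library, so they are not all distinct reads. The median name was 1.39-fold higher in young replicate 1 than in young replicate 2. For this reason, member values are also given after TMM scaling, which sets the libraries to a common trimmed mean and shifted the median log2 fold change of all names from 0.18 to -0.01. Among the 867 names tested with limma on log2(value + 1), 0 were called higher and 0 lower in old livers at an adjusted p-value under 0.05 and an absolute log2 fold change over 1, and the smallest adjusted p-value was 0.0980. Without adjustment, 72 names were higher and 31 were lower at p under 0.05. On recovered reads, the exact test of edgeR called 15 higher (1.73%) and 11 lower (1.27%), its quasi-likelihood test called 0 and 0 (65 and 57 without adjustment), and DESeq2 called 30 (3.46%) and 13 (1.5%).

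All 9 members were tested and 8 were above 0 in every library. None passed the adjusted threshold in limma, where 0.0% of all names were called, and none passed it with any other tool or setting that was run. At an unadjusted p under 0.05, 1 member was higher (miR-15b-3p, against a background of 8.30% of names) and 1 was lower (miR-16-1-3p, against 3.58%). The means of 5 members were higher and those of 4 lower in old livers. At the median, the log2 fold change was 0.33 over the members and 0.18 over all names. The values of the 2 old livers lay above those of both young livers for miR-15b and miR-15b-3p, which is 2 members where 28.3% of all names did so, and below them for miR-15a and miR-16-1-3p, where 16.1% of all names did so.

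**Figure D1:**
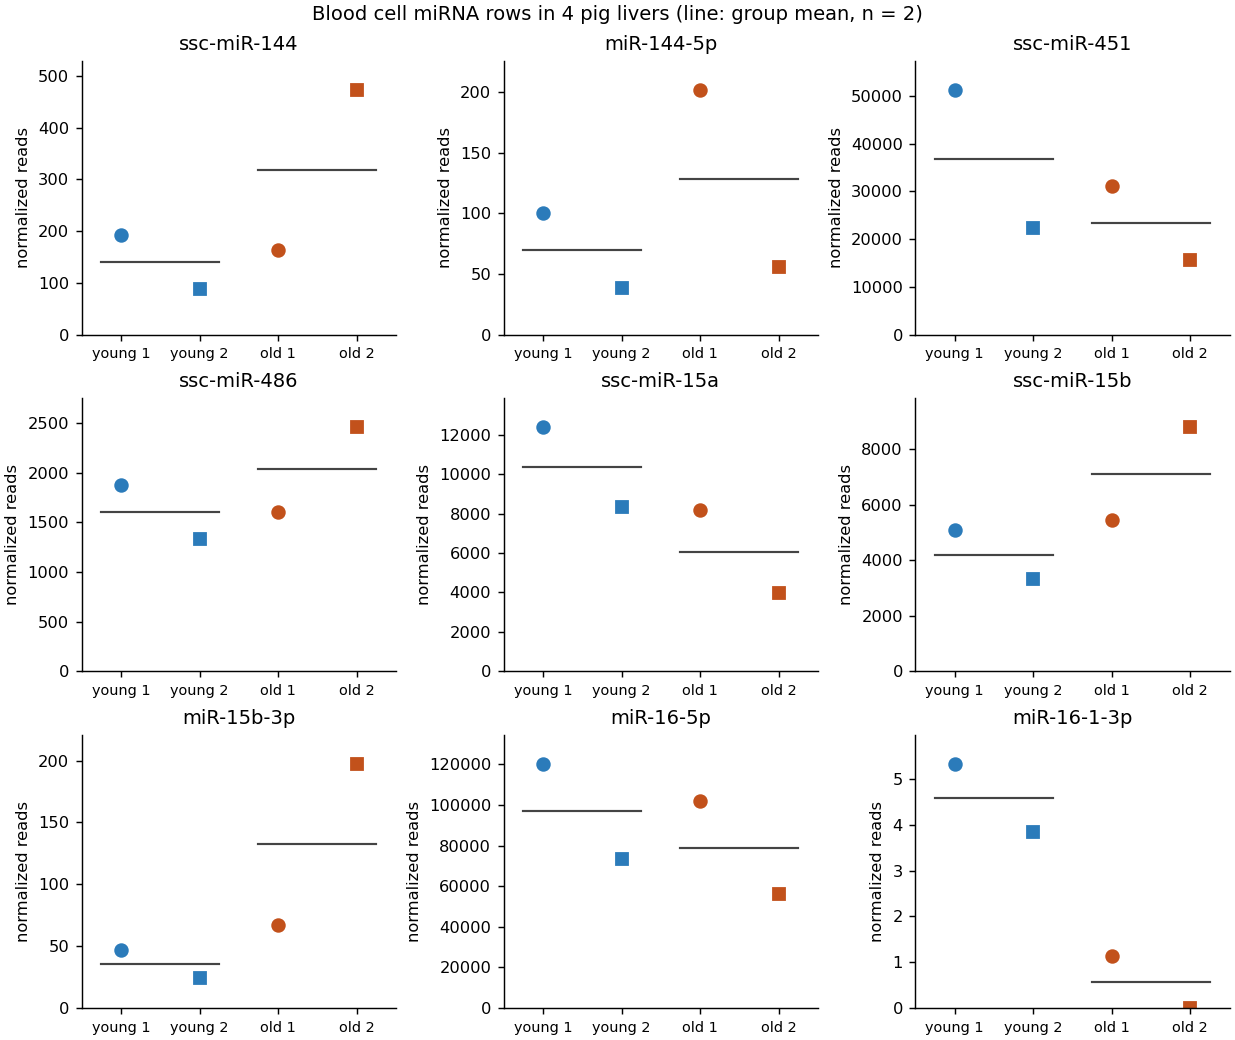
Normalized reads of the 9 members in each small RNA library. Each point is 1 liver (circle, replicate 1; square, replicate 2), blue is young and orange is old, the line is the mean of 2 livers, and each vertical axis starts at 0 and has its own range. Old replicate 2 is the highest point for miR-144, miR-486, miR-15b and miR-15b-3p and the lowest for miR-451, miR-15a, miR-16-5p and miR-16-1-3p.

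The 2 abundant members were miR-16-5p and miR-451. Together with the others they made up 1.37% (95% Wilson interval 1.37% to 1.38%) of the reads of young replicate 1 and 1.3% (1.29% to 1.31%) of those of young replicate 2. The whole here is the reads summed over names, with repeated names once. In old livers the share was 1.33% (1.32% to 1.34%) in replicate 1 and 0.806% (0.800% to 0.812%) in replicate 2. These intervals cover counting error only and take the summed reads as distinct. Old replicate 1 thus lay between the young livers and old replicate 2 lay below them. Of the member reads, miR-16-5p held 62.9% to 68.5% and miR-451 held 17.8% to 26.8%. The summed normalized reads were 191156 and 109016 in young livers and 148626 and 87496 in old livers. The log2 ratio of the group means was -0.35, and it was 0.11 without young replicate 1 and -0.01 without old replicate 2. As deposited, its size and sign thus rested on single livers. With all livers kept, it was -0.50 after TMM scaling and -0.46 after median ratio scaling.

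MiR-451, the miRNA most closely tied to red blood cells, read 51177 and 22263 normalized reads in young livers and 31219 and 15594 in old livers. It was the 32nd and 38th most abundant name in young livers and the 40th and 54th in old livers. The groups overlapped, since young replicate 2 lay below old replicate 1. Its log2 fold change was -0.61 ± 0.70 (SE, n = 2 livers a group), with a 95% interval of -2.24 to 1.01 (limma, adjusted p = 0.777). After TMM scaling the values were 45627, 29642, 29297 and 14829 in the same order, the groups no longer overlapped by a narrow margin, and the log2 fold change was -0.82 (limma, adjusted p = 0.502). As deposited, the log2 fold change was -0.01 and -1.21 when young replicate 1 or 2 was left out, and -1.11 and -0.11 when old replicate 1 or 2 was.

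MiR-144, made from the same transcript, read 192 and 88.5 normalized reads in young livers and 163 and 472 in old livers. Only old replicate 2 was high, at 3.37 times the young mean, whereas old replicate 1 lay within the young range. The log2 fold change was 1.08 ± 0.75 (SE), with an interval of -0.66 to 2.82 (limma, adjusted p = 0.603). Leaving out old replicate 1 or 2 gave 1.85 and 0.32, and leaving out young replicate 1 or 2 gave 1.64 and 0.53. The opposite arm, miR-144-5p, went the other way between the old livers, with 100 and 38.5 normalized reads in young livers and 201 and 55.9 in old livers. Its log2 fold change was 0.76 ± 0.82 (SE; limma, adjusted p = 0.767), with -0.15 and 1.68 when old replicate 1 or 2 was left out and 1.44 and 0.09 when young replicate 1 or 2 was.

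A ratio of 2 miRNAs within a library does not depend on how that library was scaled, and therefore the members were also compared in this way. No test was run on these ratios, which are given as a description, and an exact permutation test of 2 against 2 livers cannot go below a two-sided p of 0.333. The ratio of miR-144 to miR-451 was 0.00375 and 0.00398 in young livers, against 0.00521 for old replicate 1 and 0.0303 for old replicate 2. The 95% counting intervals of the first 3 overlapped in part (0.00319 to 0.00442, 0.00324 to 0.00488 and 0.00442 to 0.00614), whereas that of old replicate 2 was 0.0274 to 0.0335. Old replicate 2 thus stood 7.83-fold above the young mean, and the log2 difference between the groups, 1.70, fell to 0.43 without it. The ratio of miR-144 to miR-144-5p was 1.92 and 2.30 in young livers, against 0.808 for old replicate 1 and 8.45 for old replicate 2, so the old livers lay on both sides of the young ones.

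MiR-486, the other member tied to red cells, read 1878 and 1334 normalized reads in young livers and 1608 and 2460 in old livers. As deposited, old replicate 1 lay between the young livers and old replicate 2 above them. The log2 fold change was 0.33 ± 0.61 (SE), with an interval of -1.09 to 1.75 (limma, adjusted p = 0.862), and it was 0.12 after TMM scaling. On that scale the young livers read 1675 and 1776 and the old livers 1509 and 2339, on both sides of the young ones. As deposited, leaving out young replicate 1 or 2 gave 0.58 and 0.08, and leaving out old replicate 1 or 2 gave 0.64 and 0.02. The ratio of miR-486 to miR-451 was 0.0367 and 0.0599 in young livers and 0.0515 and 0.158 in old livers, and again old replicate 2 alone was outside the range of the rest. In that liver miR-451 was thus the lowest and miR-486 the highest of the 4.

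**Figure D2:**
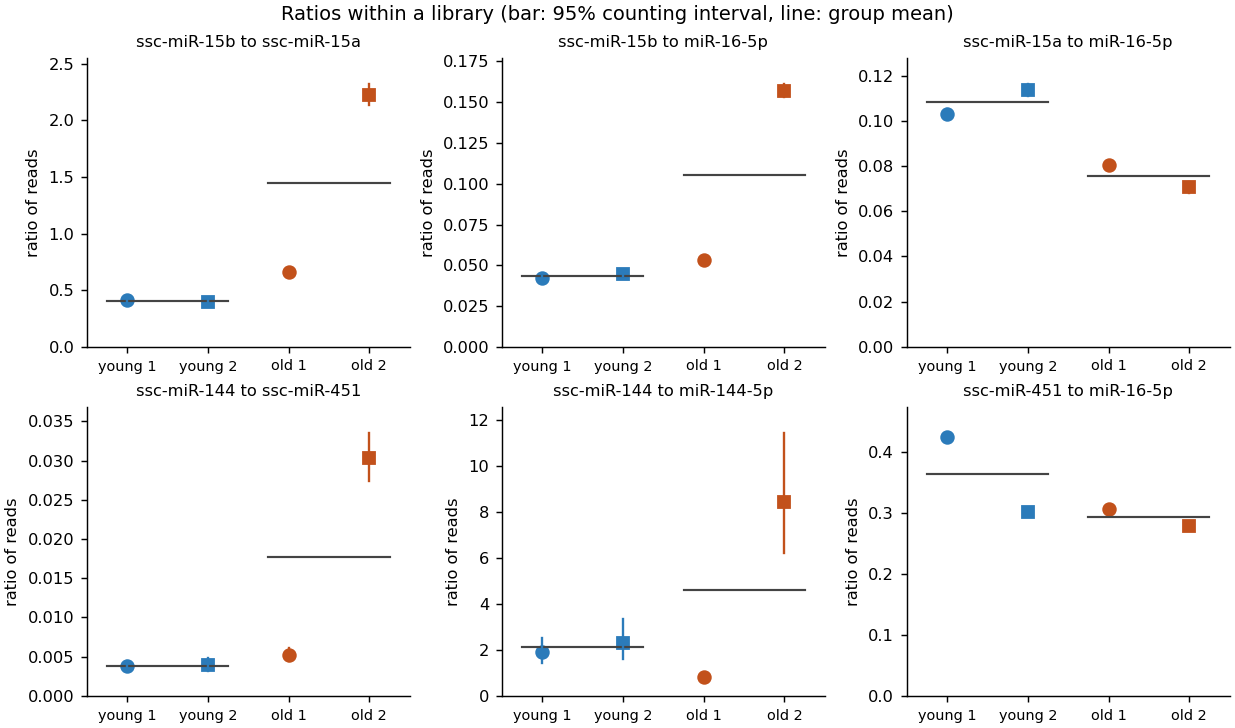
Ratios of reads between members within each small RNA library. Points are single livers (circle, replicate 1; square, replicate 2; blue, young; orange, old), bars are 95% counting intervals, which are smaller than most symbols, lines are means of 2 livers, and each vertical axis starts at 0. The 2 young livers nearly coincide for miR-15b to miR-15a (0.410 and 0.395), and old replicate 2 is the highest of the 4 in that ratio (2.22) and in miR-144 to miR-451 (0.0303).

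MiR-16-5p was the most abundant member and ranked between 20th and 30th of all names. It read 120269 and 73598 normalized reads in young livers and 101741 and 55972 in old livers, and the groups overlapped. The log2 fold change was -0.32 ± 0.64 (SE), with an interval of -1.81 to 1.17 (limma, adjusted p = 0.878). It was 0.04 without young replicate 1 and 0.11 without old replicate 2. After TMM scaling the young livers read 107227 and 97992 and the old livers 95478 and 53229, so old replicate 1 came close to the young livers and old replicate 2 stayed low. Its counterpart miR-16-1-3p had 4 reads in each young liver, 1 read in old replicate 1 and 0 in old replicate 2, which at a floor of 3 reads a library allows up to 3.57 normalized reads. The rate in old livers was 0.130 times that in young livers (exact counting interval 0.00293 to 0.970), from 8 reads against 1. The difference was at the edge of this depth (limma, adjusted p = 0.305), and DESeq2 gave no adjusted p-value for it.

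MiR-15a and miR-15b, which carry the same seed, lay on opposite sides. MiR-15a read 12401 and 8361 normalized reads in young livers and 8184 and 3953 in old livers. Both old livers were lower, old replicate 1 only just, and the log2 fold change was -0.84 ± 0.65 (SE), with an interval of -2.35 to 0.67 (limma, adjusted p = 0.658). Leaving out old replicate 1 or 2 gave -1.36 and -0.32, and leaving out young replicate 1 gave -0.56. MiR-15b read 5087 and 3305 in young livers and 5442 and 8792 in old livers. Both old livers were higher, again with old replicate 1 close to the young range, and the log2 fold change was 0.75 ± 0.62 (SE), with an interval of -0.69 to 2.20 (limma, adjusted p = 0.683). It was 0.41 when old replicate 2 was left out and 0.44 when young replicate 2 was. After TMM scaling the young livers agreed more closely, at 11056 and 11133 for miR-15a and at 4535 and 4401 for miR-15b. On that scale the old livers read 7681 and 3760 for miR-15a and 5107 and 8361 for miR-15b, and both log2 fold changes (-1.05 and 0.55) still missed the threshold (limma, adjusted p = 0.412 and 0.561).

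The ratio of miR-15b to miR-15a was 0.410 and 0.395 in young livers, against 0.665 for old replicate 1 and 2.22 for old replicate 2. The 95% counting intervals of the young livers overlapped (0.395 to 0.426 and 0.380 to 0.411), and both old livers lay above them, 1.65-fold and 5.52-fold over the young mean. The log2 difference between groups was 1.59 (SD 0.04 in young and 1.23 in old livers, n = 2 each). It was 0.72 without old replicate 2 and 2.47 without old replicate 1. The deposited reads of miR-15a and miR-486 were even numbers in all 4 libraries, as for 36 of the 393 names with at least 20 reads in each (9.16%), and whether their reads were counted at 2 places was not tested.

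Relative to miR-16-5p, the difference was smaller but more alike in the 2 old livers for miR-15a. The ratio of miR-15a to miR-16-5p was 0.103 and 0.114 in young livers and 0.0804 and 0.0706 in old livers. The groups did not overlap, and the log2 difference of -0.52 stayed between -0.62 and -0.43 when any 1 liver was left out. The ratio of miR-15b to miR-16-5p was 0.0423 and 0.0449 in young livers and 0.0535 and 0.157 in old livers, a log2 difference of 1.07 that was 0.30 without old replicate 2. The ratio of miR-451 to miR-16-5p was 0.426 and 0.302 in young livers and 0.307 and 0.279 in old livers, and here the groups overlapped.

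The lesser arm miR-15b-3p had the largest positive log2 fold change of the members. It read 46.7 and 24.1 normalized reads in young livers and 67.1 and 197 in old livers, from 25 to 166 reads. Old replicate 2 was 5.58 times and old replicate 1 was 1.90 times the young mean. The log2 fold change was 1.75 ± 0.74 (SE), with an interval of 0.04 to 3.46 (limma, adjusted p = 0.408), and it was 0.98 without old replicate 2. The ratio of miR-15b-3p to miR-15b was 0.00918 and 0.00728 in young livers and 0.0123 and 0.0225 in old livers, with no overlap of the groups.

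**Figure D3:**
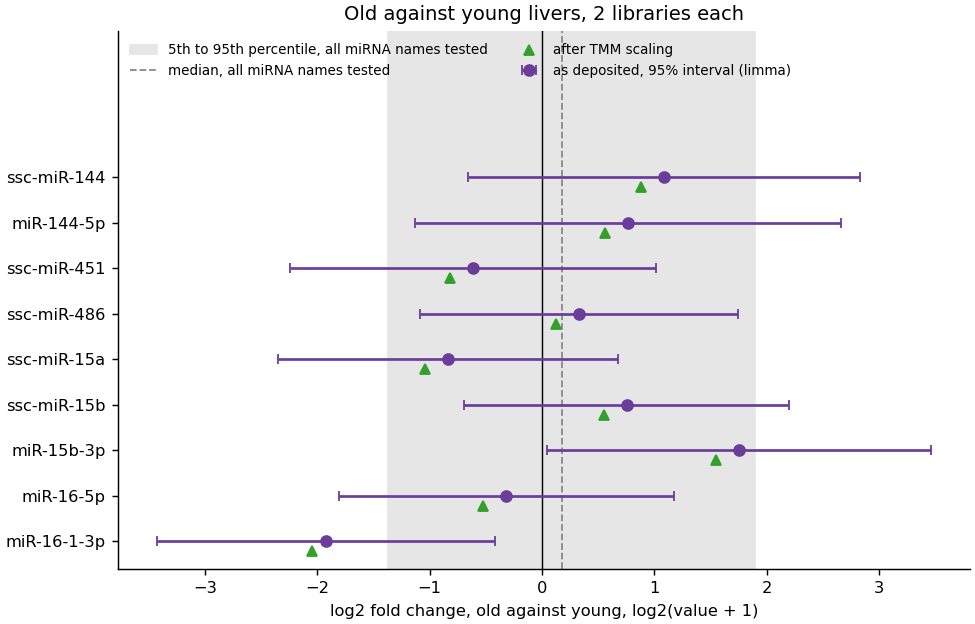
Log2 fold change of each member in old against young livers, from log2(value + 1). Circles with bars are limma estimates from the values as deposited with 95% intervals (n = 2 livers a group), triangles are estimates after TMM scaling, the dashed line is the median of all 867 names tested (0.18) and the grey band their 5th to 95th percentile (-1.37 to 1.89). The intervals of 7 members include 0, miR-15b-3p lies to the right of 0 and miR-16-1-3p to the left, and TMM scaling moves all members to the left.

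As deposited, the members differed more than all names did between the 2 old livers, and about as much between the 2 young livers. The median absolute log2 difference between the 2 old livers was 1.05 for the members and 0.68 for all names, and that between the 2 young livers was 0.71 and 0.65. After TMM scaling it was 0.68 between old and 0.41 between young livers over all names. On that scale the young livers read 11056 and 11133 for miR-15a, 107227 and 97992 for miR-16-5p, and 45627 and 29642 for miR-451. Old replicate 2 was the highest library for 4 members and the lowest for 4, which makes 8 of 9 (also after TMM scaling), where it was the highest for 30.2% and the lowest for 23.4% of all names, together 53.6% as deposited and 56.9% after TMM scaling. As deposited, old replicate 1 lay within the young range for miR-144, miR-451, miR-486 and miR-16-5p. On the TMM scale it did so for miR-144 only. There it lay below both young livers for miR-451 (only just), miR-486 and miR-16-5p. After TMM scaling the groups did not overlap for 2 members that were higher (22.8% of all names) and 4 that were lower (28.0%), with miR-451 and miR-16-5p joining miR-15a and miR-16-1-3p.

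The names whose values over the 4 livers most resembled those of miR-451 were sought by the root mean square difference of centred log2 values among 541 names. This likeness is a description over 4 livers, which also share the scaling of each library. The nearest were miR-20a (0.12), let-7f-2-3p (0.12), miR-1839-5p (0.12), miR-19b-3p (0.15) and miR-148a-3p (0.18), where the median name differed by 0.72. MiR-148a-3p, a leading miRNA of hepatocytes, read 366850 and 125330 normalized reads in young livers and 221498 and 86021 in old livers. Of the members, miR-16-5p (0.23) and miR-15a (0.25) were near miR-451. MiR-486 (0.78), miR-144-5p (0.75), miR-15b (0.93) and miR-144 (1.23) were farther from it than the median name, and miR-15b-3p (1.49) was farthest.

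Mature miR-16 shares its seed with miR-195, miR-497 and miR-424 as well, and the 6 main forms were summed. The sum was 176838 and 110735 normalized reads in young livers and 163848 and 98626 in old livers, so the groups overlapped. Its make-up is given as shares, which sum to the whole, so that a larger share of 1 name makes those of the others smaller. The share of miR-16-5p was 68.0% and 66.5% in young and 62.1% and 56.8% in old livers, and that of miR-15a was 7.01% and 7.55% in young and 5.00% and 4.01% in old livers. That of miR-15b was 2.88% and 2.98% in young and 3.32% and 8.91% in old livers. These shares are a description with no test. The share of miR-195-5p was 6.78% and 6.41% in young and 15.9% and 16.6% in old livers, that of miR-497-5p was 4.29% and 5.08% against 5.26% and 8.14%, and that of miR-424-5p was 11.03% and 11.5% against 8.40% and 5.57%. Among the 5 names of miR-195, miR-497 and miR-424 tested, limma called 0, and miR-195-5p read 11986 and 7094 in young and 26102 and 16386 in old livers (log2 fold change 1.17 ± 0.63, SE; limma, adjusted p = 0.517).

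**Figure D4:**
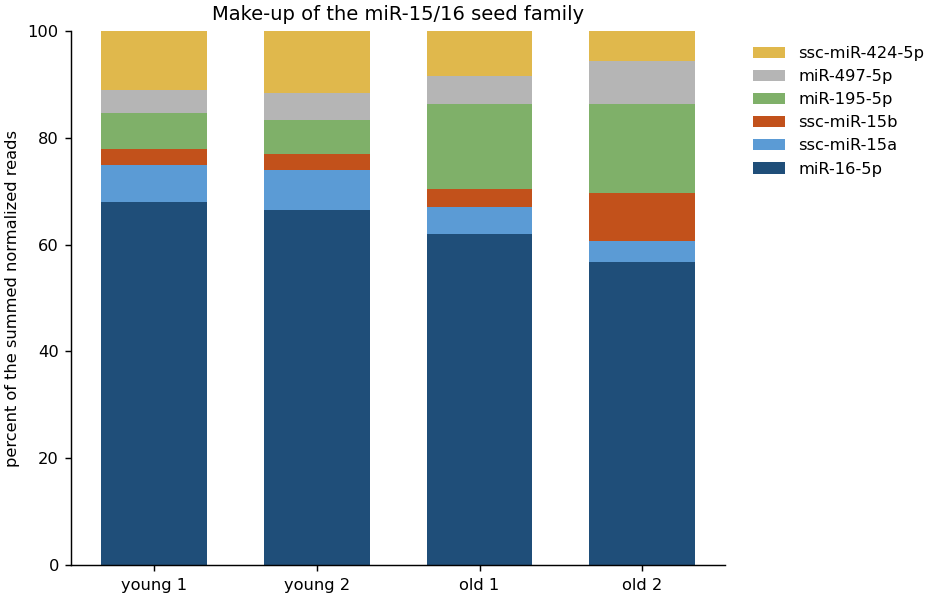
Make-up of the miR-15/16 seed family in each small RNA library, as percent of the summed normalized reads of 6 names, with 1 bar for each liver. In both old livers the parts of miR-16-5p and miR-15a are smaller and those of miR-195-5p, miR-15b and miR-497-5p larger than in both young livers, and the miR-15b part of old replicate 2 is the largest at 8.91%.

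Red cell mRNAs were then read in the RNA libraries of the same livers, in CPM, whose values hold no gene length. Of 34 erythroid marker symbols 19 had an identifier and 17 were tested, and limma called 0 higher and 0 lower, as for all 16898 mRNAs (0.0%), whose smallest adjusted p-value was 0.213. Without adjustment, 1145 mRNAs were higher (6.78%) and 1509 lower (8.93%) at p under 0.05. On recovered reads the exact test of edgeR called 457 mRNAs higher (2.7%) and 77 lower (0.456%). Fewer mRNA identifiers were above 0 in young libraries (15230 and 14291) than in old ones (17262 and 16978), although the young libraries held more reads. This limit bears on genes named below with no reads in young livers, such as EPB42, RHCE, S100A8 and CCNE1, and its cause was not tested. HBB, the beta chain of haemoglobin, read 617 and 425 CPM in young and 302 and 402 CPM in old livers. Both old livers were lower as deposited but the groups overlapped after TMM scaling, and the log2 fold change was -0.55 ± 0.28 (SE; limma, adjusted p = 0.462). ALAS2, the heme synthesis enzyme of red cells, read 4.71 and 3.55 CPM in young and 3.53 and 3.15 CPM in old livers. Its log2 fold change was -0.23 ± 0.17 (SE; limma, adjusted p = 0.602), and its groups also overlapped after TMM scaling.

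Other defining red cell markers were near the limit of detection. The anion exchanger SLC4A1 read 0.163 and 0.254 CPM in young and 0.260 and 0.195 CPM in old livers. EPB42, a membrane skeleton protein, had no reads in young livers and 0.065 and 0.111 CPM in old livers. No identifier carried the symbols HBA or AHSP. HBM, a minor alpha-like globin, read 0.795 and 0 CPM in young and 1.71 and 2.16 CPM in old livers (log2 fold change 1.13 ± 0.36, SE; limma, adjusted p = 0.308). RHCE, a blood group protein, had no reads in young livers and 0.130 and 0.111 CPM in old livers.

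The erythroid markers had a median log2 fold change of 0.02 (all mRNAs, -0.02), with 8 whose old livers lay above both young livers (24.4% of all mRNAs did) and 2 below (25%). All of the 8 except HBM had values of at most 0.130 CPM. Their summed level, which is nearly all HBB, was 626 and 433 CPM in young and 309 and 412 CPM in old livers. In the order young 1, young 2, old 1 and old 2, HBB was lowest in old replicate 1, whereas miR-451 was lowest and miR-486 highest in old replicate 2. The part that residual blood had in the member values was not tested.

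**Figure D5:**
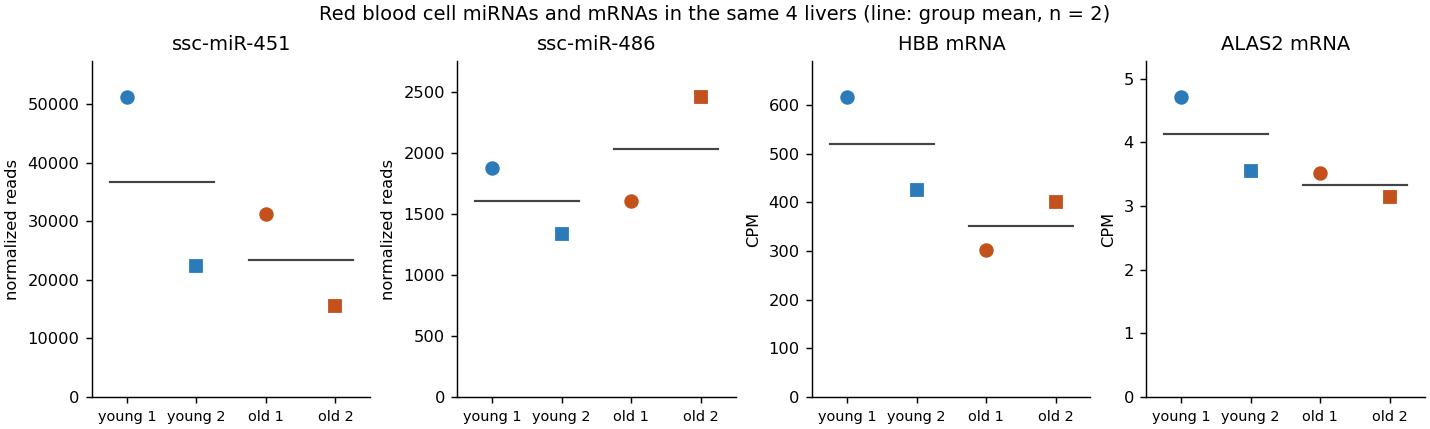
Red cell miRNAs (normalized reads) beside red cell mRNAs (CPM) in the same 4 livers. Each point is 1 liver (circle, replicate 1; square, replicate 2; blue, young; orange, old), lines are means of 2 livers, and each vertical axis starts at 0 with its own range. Young replicate 1 is highest for miR-451, HBB and ALAS2 (51177 normalized reads, 617 CPM and 4.71 CPM) but not for miR-486.

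Other blood cells were read from their own markers. Limma called 0 of 8 neutrophil, 0 of 4 platelet and 0 of 9 lymphocyte mRNAs tested. S100A8, a calcium-binding protein of neutrophils, had no reads in young livers and 3.54 and 0.919 CPM in old livers (limma, adjusted p = 0.309), and the exact test of edgeR called it (adjusted p = 6.3e-05). The receptor CSF3R read 0.098 and 0.393 CPM in young and 2.36 and 0.849 CPM in old livers (limma, adjusted p = 0.355), and the integrin ITGAM read 0.969 and 0.936 against 0.682 and 0.571 CPM. The summed neutrophil level was 5.49 and 4.91 CPM in young and 12.5 and 4.46 CPM in old livers. Of the platelet mRNAs, TREML1 (0 to 0.097 CPM), TUBB1 (0.146 to 0.654 CPM) and ITGB3 (0.861 to 1.71 CPM) were low in every liver. For lymphocytes, CD8A read 0.534 and 0.809 CPM in young and 1.61 and 1.67 CPM in old livers and NKG7, a granule protein of cytotoxic cells, read 1.25 and 1.79 CPM against 3.10 and 2.95 CPM (limma, adjusted p = 0.242 and 0.255). The B cell genes CD79B and MS4A1 had lower means in old livers, at 0.555 against 1.22 CPM and 0.085 against 0.350 CPM (limma, adjusted p = 0.417 and 0.681). Summed over all 9 lymphocyte mRNAs, the level was 62.1 and 42.2 CPM in young and 225 and 43.8 CPM in old livers, so only old replicate 1 was high, and CD247, a T cell receptor chain that was named after its values were seen, held 206 CPM of it.

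All 6 leukocyte and platelet miRNAs had higher means in old livers, with 0 called by limma, and in 4 both old livers lay above both young ones, which 28.3% of all names did. After TMM scaling this held for 2 of the 6, miR-150-5p and miR-342-3p (the latter named after its values were seen), and for 22.8% of all names. As deposited, the log2 fold changes of miR-142-5p and miR-142-3p, also named after their values were seen, were both 0.09. The median of all names was 0.18. In the exact test of edgeR their log2 fold changes were 0.03 and -0.06. Of the 6, the lymphocyte miRNA miR-150-5p read 903 and 888 normalized reads in young and 3087 and 4159 in old livers (log2 fold change 2.0 ± 0.59, SE; limma, adjusted p = 0.263), and the exact test of edgeR called it (adjusted p = 0.0069). Hepatocyte mRNAs were abundant in every liver, with a summed level of 87283 and 95255 CPM in young and 62034 and 66101 CPM in old livers. Of 9 tested, limma called 0, and 6 had lower means in old livers. ALB, the gene of serum albumin, which was chosen after its values were seen, read 29468 and 35205 CPM in young and 16534 and 23978 CPM in old livers, and its groups did not overlap after TMM scaling either. The part that this had in the member values was not tested. The apolipoproteins APOC3 and APOB had lower means in old livers, at 26507 against 39996 CPM and 134 against 199 CPM (limma, adjusted p = 0.242 and 0.315), whereas APOA1 (894 to 1898 CPM) and AMBP (1180 to 2247 CPM) overlapped between ages.

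Further miRNAs that are abundant in red blood cells were compared with the members. Of 12 names tested, limma called 0, and 7 had higher and 5 lower means in old livers. MiR-92a read 43922 and 22375 normalized reads in young and 67140 and 121301 in old livers (log2 fold change 1.53 ± 0.66, SE; limma, adjusted p = 0.417). It was highest in old replicate 2, as miR-144 and miR-15b were. MiR-185-5p read 6285 and 4999 in young and 3908 and 2614 in old livers (log2 fold change -0.81 ± 0.60, SE; limma, adjusted p = 0.640) and was lowest there, as miR-451 was. MiR-182, which read 193 and 204 in young livers, read 377 and 435 in old livers (limma, adjusted p = 0.552).

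The host genes and the processing machinery were read next. Of 12 symbols 9 had an identifier, all 9 were tested, 0 were called by limma, and 2 had higher and 7 lower means in old livers. ANK1, which hosts miR-486, was at 0.011 to 0.069 CPM, or 1 to 6 reads a library, so its mRNA was barely detected where miR-486 held 1386 to 2068 reads. SMC4, which hosts miR-15b and a miR-16 hairpin, read 0.631 and 1.03 CPM in young and 0.634 and 0.334 CPM in old livers. It was lowest in old replicate 2, the liver with the most miR-15b.

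Among the processing genes, AGO2, the slicer that matures miR-451, read 2.10 and 2.28 CPM in young and 6.40 and 2.69 CPM in old livers (log2 fold change 0.71 ± 0.41, SE; limma, adjusted p = 0.507). AGO3 ranged from 0.250 to 1.28 CPM and PARN, a deadenylase that trims miR-451, from 2.44 to 4.11 CPM, and for both the groups overlapped. XPO5, which exports hairpins from the nucleus, read 6.62 and 3.99 CPM in young and 3.97 and 2.91 CPM in old livers, and DICER1 read 1.86 and 1.55 against 0.926 and 1.46 CPM. Both were lower in old livers as deposited, but their groups overlapped after TMM scaling. DROSHA (0.571 to 0.849 CPM) and DGCR8 (2.09 to 3.02 CPM) overlapped between ages.

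Genes known as targets were taken from lists by miRNA, and limma called 0 of 8 tested for miR-15 and miR-16, 0 of 4 for miR-451, 0 of 4 for miR-144 and 0 of 6 for miR-486. Their median log2 fold changes were -0.21, -0.23, -0.13 and -0.18, beside -0.02 for all mRNAs, from the values as deposited. The log2 factors of TMM scaling were -0.13 and -0.07 for young and 0.10 and 0.10 for old mRNA libraries. That scaling thus raises old against young livers, and what part of these medians it accounts for was not tested. CCNE1, the cyclin E that drives entry into S phase and a target of miR-15 and miR-16, had no reads in young livers and 0.292 and 0.320 CPM in old livers (limma, adjusted p = 0.279, and exact test of edgeR, adjusted p = 0.042). FGFR1, a growth factor receptor, read 1.42 and 1.04 CPM in young and 1.58 and 3.20 CPM in old livers (limma, adjusted p = 0.487). BMI1, a polycomb protein, had a lower mean in old livers, at 2.16 against 3.14 CPM (limma, adjusted p = 0.522).

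For miR-451, the cytokine MIF read 80.2 and 69.3 CPM in young and 263 and 189 CPM in old livers. Both old livers were well above the young ones, and the log2 fold change was 1.57 ± 0.23 (SE; limma, adjusted p = 0.213), while the exact test of edgeR called it (log2 fold change 1.80, adjusted p = 0.041). RAB14, a vesicle GTPase, and CAB39, a scaffold of the kinase LKB1, had lower means in old livers, at 5.85 against 7.83 CPM and 3.02 against 4.09 CPM (limma, adjusted p = 0.410 and 0.493). For miR-144, NFE2L2, the regulator of the oxidative stress response, read 21.0 and 46.5 CPM in young and 13.3 and 12.3 CPM in old livers (log2 fold change -1.23 ± 0.45, SE; limma, adjusted p = 0.349). Both old livers were lower than both young ones.

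The nutrient-sensing kinase MTOR read 1.01 and 1.17 CPM in young and 1.66 and 1.80 CPM in old livers (limma, adjusted p = 0.300), and EZH2, a histone methyltransferase, read 0.555 and 0.462 against 0.260 and 0.348 CPM (limma, adjusted p = 0.498). For miR-486, ARHGAP5, a GTPase-activating protein, read 9.10 and 5.56 CPM in young and 3.54 and 3.01 CPM in old livers (log2 fold change -0.93 ± 0.28, SE; limma, adjusted p = 0.289). The deacetylase SIRT1 overlapped between the groups (0.905 to 1.99 CPM), as did the transcription factor FOXO1 (0.599 to 1.84 CPM) and the receptor IGF1R (0 to 0.097 CPM).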

How the data were processed

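Small RNA-seq and RNA-seq libraries of 4 livers were grouped by age from their labels, with 2 sows in each group. The miRNA signal was made by the authors with mirdeep2 against miRBase and named TPM, and as deposited 100% of the values were whole reads (within 0.05 reads) times 1 step per library, whose scaling total the sources used here do not give. The deposited CPM values of mRNAs, also named TPM, came from TopHat2 2.0.14 on Sscrofa10.2, StringTie 1.2.3 and Salmon 0.6.0 per the labels and the study's methods, and at least 99.98% of them were whole reads times 1 step. A total that differs between libraries shifts all names of a library together, which TMM and median ratio scaling were used to check. Hairpin copies and near-identical names share reads: 7 pairs of names repeated one another, none of them a member.

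Python 3.11.15 (numpy 2.4.6, pandas 2.3.3, scipy 1.17.1) and R 4.3.3 were used. Limma 3.58.1 was fitted to log2(value + 1) over names with a value above 0 in 2 or more libraries and adjusted by Benjamini-Hochberg, and the exact and quasi-likelihood tests of edgeR 4.0.16 and DESeq2 1.42.0 were run on recovered reads. The tests were two-sided. They were also run on simulated counts, from which no result given here is drawn. The deposited values are normalized, so limma was the main test, and the study's exact test was an alternative on recovered reads. The members and lists were chosen with earlier results of these data known. Every member was named, and of other genes all host and processing genes with a value, the erythroid markers that define red cells, the 5 names nearest to miR-451 and, per list, those called or otherwise the 2 with the smallest p-value in each direction. Names of lesser arms with few reads (miR-497-3p, miR-223-5p and miR-182-3p) came up by this rule and are not described further. Some other genes that it named are not reported here. Lists were joined by symbol, which 11654 of 21607 mRNA identifiers had. The lncRNA and circRNA tables were not used here, and sequences of the miRNAs were not used here. The pairs of samples with 1 replicate number were checked for shared deviations.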

Additional observations from a re-analysis of the deposited data

How the results depend on the processing

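With 2 sows a group, single livers limited the results. No member passed the threshold under any of the alternatives run, and the directions of miR-144, miR-451, miR-486, miR-15a, miR-15b, miR-15b-3p and miR-16-1-3p held in all of them that gave a value. When each library was left out in turn, the log2 fold change of miR-144-5p ranged from -0.15 (without old replicate 1) to 1.68 and that of miR-16-5p from -0.75 to 0.11 (0.04 without young replicate 1, 0.11 without old replicate 2). TMM scaling raised the members whose groups did not overlap and were lower in old livers from 2 to 4, an alternative chosen after seeing the data. The share of all names with this pattern rose from 16.1% to 28.0% under the same scaling. Over all miRNAs, where limma called 0 and 0, the calls higher and lower were 15 and 11 with the exact test of edgeR, 30 and 13 with DESeq2, 10 and 6 at a mean of at least 10, 4 and 3 with a variance trend, and 0 to 27 and 0 to 12 with 1 library left out. Over all mRNAs the exact test of edgeR called 457 and 77, where limma called 0. The median log2 fold change of the erythroid markers was 0.02, and it was 0.095 with a pseudocount of 0.1, 0.31 with the exact test and 0.31 with the quasi-likelihood test of edgeR, and -0.023 to 0.041 with 1 library left out. The cause of these changes was not tested. Deviations from the group means were nearly uncorrelated between libraries of 1 replicate number (-0.02 for miRNAs and 0.09 for mRNAs). With 2 libraries a group, this cannot show whether the numbers pair the samples. With the replicate number as a block 0 miRNAs and 0 mRNAs were called, as without it. Depth limits miR-16-1-3p (0 to 4 reads a library), ANK1 and most erythroid mRNAs.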
